A study of Homo sapiens with 6 samples.

Results

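USP22 encodes the catalytic subunit of the deubiquitinase module of SAGA, and its mRNA was about 1.49-fold less abundant in SW403 cells with IRS2 knocked down than in control cells. Of the 9 other genes described here, 2 were called lower at an edgeR adjusted p under 0.05 (22.2%), near the 19.2% of all tested genes. These were ENY2, one of the proteins that USP22 needs in order to work, which fell by 13.1%, and KAT2B, close to the threshold. The other activator of USP22, ATXN7L3, and the acetyltransferase KAT2A were not called and overlapped between the groups. The 10 genes described here were picked by symbol from the 26490 symbols of the count table: USP22, its 2 closest paralogues USP27X and USP51, the deubiquitinase module genes ATXN7, ATXN7L3 and ENY2, and the SAGA genes KAT2A, KAT2B, TADA2B and SUPT20H. USP22 was singled out on its lower count in this same comparison, so its difference is a description and no test is given for it. The other 9 were named for their place in or beside the complex, with earlier results of these data known.

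SAGA is a large coactivator complex that is brought to promoters by transcription factors. It carries a histone acetyltransferase, KAT2A or KAT2B, and a deubiquitinase, USP22, which removes ubiquitin from histone H2B. USP22 is inactive by itself: ATXN7L3 and ENY2 bind and activate it, and ATXN7 anchors the module to the rest of SAGA. USP27X and USP51 use the same 2 activators outside SAGA, so the 3 enzymes compete for them. USP22 is also known as a member of an expression signature of aggressive tumours.

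The study compared 3 control cultures with 3 IRS2 knockdown cultures of SW403, an established human colon adenocarcinoma line. IRS2 encodes insulin receptor substrate 2, which relays signals from the insulin and IGF1 receptors. The controls had normal IRS2 expression, and all 6 cultures were grown for 24 h in the same medium, with no drug or other treatment. The sample titles say knockdown, while the sample descriptions of the same cultures are marked KO. How IRS2 was lowered, and whether each culture was its own knockdown or control line, is not given in the sources used here. The p-values therefore measure only the spread between these cultures. IRS2 itself was at 33.2 ± 1.42 CPM (mean ± SD, n = 3; CPM is the gene's count per 1000000 counts of its library) in control and 12.4 ± 0.535 CPM (n = 3) in knockdown libraries.

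The control libraries held 11816973 to 12585013 counts and the knockdown libraries 14329348 to 18114656, so the knockdown libraries were all the deeper ones. Of 13832 genes tested with edgeR's quasi-likelihood test, 38.5% passed an adjusted p of 0.05, 19.2% being lower and 19.3% higher in knockdown, and the median log2 fold change was -0.00. Of 12 colon epithelial markers, KRT8, KRT18, KRT19, EPCAM, CDX2 and VIL1 were expressed, KRT20, CDX1 and CEACAM5 were at 0 in all 6 libraries, and CDH1, GPA33 and LGALS4 had at most 5 counts in any library. The summed level of these markers was 2536 to 2637 CPM in control and 2364 to 2457 CPM in knockdown. Of 12 fibroblast, immune and endothelial markers, 5 averaged at least 10 counts, and PECAM1, CDH5 and LYVE1 were at 0 in all libraries. Of these markers 4 were tested, with 2 lower, 0 higher and a median log2 fold change of -0.67. The summed level of the 12 was 11.3 to 29.5 CPM in control and 8.32 to 9.83 CPM in knockdown, with the highest COL1A1 and COL1A2 counts in control replicate 1. In bulk RNA, a smaller number of expressing cells and less RNA per cell cannot be told apart.

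The catalytic centre shows how alike the 3 enzymes are, and how far their transcripts can be told apart by sequencing. The stretches below are 60 coding bases around the codon of the catalytic cysteine, which starts at base 28. They were read from the GRCh37 genome, 5′ to 3′ on the coding strand, and capitals mark bases that differ from USP22.
USP22: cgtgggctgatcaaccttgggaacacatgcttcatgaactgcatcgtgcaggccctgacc
USP27X: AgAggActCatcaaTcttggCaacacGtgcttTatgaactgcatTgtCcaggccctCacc
USP51: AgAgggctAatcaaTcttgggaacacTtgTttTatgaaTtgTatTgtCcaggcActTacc
The USP22 stretch lies in exon 5 of 13 (minus strand, chr17:20921360-20921419) and holds codon 185 of 525. The USP27X stretch lies in that gene's only exon (plus strand, chrX:49645142-49645201, codon 87 of 438) and differs from USP22 at 11 bases. The USP51 stretch lies in exon 3 of 3 (minus strand, chrX:55514227-55514286, codon 372 of 711) and differs at 13 bases. Over the aligned coding sequence USP22 shared 81.4% of bases with USP27X and 74.6% with USP51. The longest identical runs were 21 and 20 bases, and no window of 50 bases was identical in USP22 and either paralogue.

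USP22 lies on chromosome 17 (GRCh37, 20902909 to 20947073, minus strand). Control libraries contained 5304, 5295 and 5084 USP22 counts, and knockdown libraries 3973, 4814 and 4977. Scaled to library totals these were 421, 422 and 430 CPM in control and 277, 282 and 275 CPM in knockdown. Every knockdown library lay below every control library, and within each group the libraries were close together. The means were 424 ± 5.04 CPM (SD, n = 3) and 278 ± 3.73 CPM (SD, n = 3). The edgeR fit, which rescales the libraries by TMM, gave a log2 fold change of -0.58 ± 0.03 (SE), a fall of 33.1%. Scaled by library size alone, as the CPM are, the log2 fold change was -0.61. USP22 was picked for its fall in these libraries, so its place among all genes is a description. Among the 10449 tested genes averaging 100 counts or more, 186 had a lower fold change than USP22. Among the 3532 averaging 1000 or more 10 did, and among the 571 averaging 4000 or more 2 did. Leaving out each library in turn, control replicate 1 included, gave log2 fold changes of -0.59 to -0.57, and thinning the counts to the smallest library gave -0.59.

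**Figure D1:**
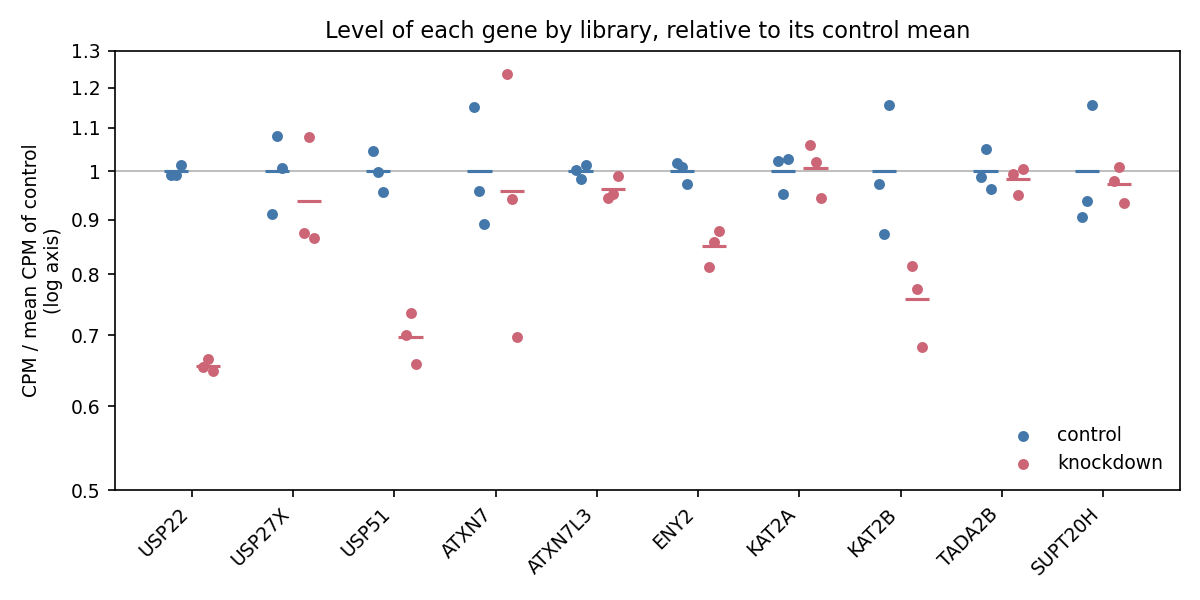
CPM of each of the 10 genes in the 3 control (blue) and 3 knockdown (red) libraries, divided by that gene's control mean, on a log axis; points are libraries and bars are group means. The groups are apart for USP22, USP51, ENY2 and KAT2B and overlap for the other 6 genes. The share of all tested genes with groups apart was not counted, and USP22 was picked for its fall, so this is a description.

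Of the 2 activators of USP22, ENY2 was lower and ATXN7L3 was not called. ENY2 is a small protein shared by the deubiquitinase module and by TREX-2, a complex for mRNA export, and its gene lies on chromosome 8. It had 1027, 1016 and 923 counts in control and 934, 1175 and 1275 in knockdown libraries, or 81.6, 80.9 and 78.1 CPM against 65.2, 68.9 and 70.4 CPM. All 3 knockdown libraries were below all controls. The log2 fold change was -0.20 ± 0.05 (SE; edgeR adjusted p 0.00141), and ENY2 stayed below the threshold in every alternative run, with adjusted p from 0.000402 to 0.0114.

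ATXN7L3 (chromosome 17, 42269173 to 42277481) encodes the adaptor that bridges USP22 and ENY2. Its levels were 66.3, 65.0 and 67.1 CPM in control and 62.4, 62.9 and 65.5 CPM in knockdown, and the groups overlapped. The log2 fold change was -0.02 ± 0.04 (SE; edgeR adjusted p 0.706), with a 95% interval of the change from -7.85% to 4.89%. ATXN7L3B, a related protein that binds ENY2 outside SAGA, fell from 34.4 ± 3.25 to 26.4 ± 0.494 CPM (SD over 3 libraries each; log2 fold change -0.35, edgeR adjusted p 0.000399).

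ATXN7 (chromosome 3, 63848831 to 63989138), the anchor of the module and the gene expanded in spinocerebellar ataxia type 7, varied more between the knockdown cultures than the other 9 genes did, by 1.77-fold. It was at 28.8, 24.0 and 22.3 CPM in control and 30.9, 23.6 and 17.4 CPM in knockdown, so the groups overlapped, with both the highest and the lowest library among the knockdowns. Its log2 fold change of -0.06 ± 0.14 (SE; edgeR adjusted p 0.785) became 0.06 without control replicate 1 and 0.13 without knockdown replicate 3. The 5′ end of ATXN7 overlaps THOC7 on the opposite strand, which fell (log2 fold change -0.23, edgeR adjusted p 0.00194). The library kit, as named, does not mark the strand, so reads from the shared stretch cannot be told apart. TMUB2, EXOSC8 and CCDC96, which overlap the ends of ATXN7L3, SUPT20H and TADA2B, were not called. The anchors related to ATXN7, ATXN7L1 and ATXN7L2, were not called (log2 fold changes 0.14 and 0.04).

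Neither paralogue of USP22 was called, and both were scarce. USP27X (chromosome X, 49644087 to 49647162) had 55, 65 and 57 counts in control and 60, 88 and 75 in knockdown, 4.79 ± 0.403 against 4.49 ± 0.574 CPM (SD, n = 3 each). The groups overlapped, and the log2 fold change was -0.06 ± 0.16 (SE; edgeR adjusted p 0.802). USP51 (chromosome X, 55511049 to 55516281) had 21, 20 and 18 counts in control and 16, 20 and 19 in the deeper knockdown libraries. Its groups were apart, at 1.59 ± 0.0727 and 1.11 ± 0.0616 CPM (SD, n = 3 each). At so few counts the log2 fold change of -0.49 ± 0.26 (SE) missed the threshold (edgeR adjusted p 0.155), with an interval of the change from -51.3% to 4.30%.

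USP22 made up nearly all reads of the 3 enzymes in both groups. Its share was 98.6%, 98.4% and 98.5% in control and 98.1%, 97.8% and 98.1% in knockdown, and USP27X took 1.11% ± 0.0931 in control and 1.58% ± 0.178 in knockdown (SD, n = 3 each). The USP27X shares did not overlap between groups, although its own CPM did. As USP22 makes up nearly all of these reads, its fall raises the USP27X share without any change in USP27X. A share within a library does not depend on how libraries are scaled. The smallest two-sided p of an exact permutation test with 3 libraries against 3 is 0.1, and shares and ratios are therefore given without a p.

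Set against its activators, USP22 was less abundant in knockdown. USP22 was picked for its fall in these same libraries, so lower ratios to genes that changed little follow from that choice. The ratios are a description. In control libraries there were 6.42 ± 0.0651 USP22 reads for each ATXN7L3 read (SD, n = 3), and in knockdown 4.38 ± 0.157 (SD, n = 3). Per ENY2 read there were 5.29 ± 0.186 in control and 4.08 ± 0.175 in knockdown (SD, n = 3 each), so USP22 was lower also against the activator that itself fell. Per KAT2A read the ratios were 4.05 ± 0.155 and 2.64 ± 0.140 (SD, n = 3 each). The groups were apart in these 3 ratios, while the ratio to ATXN7 overlapped, at 17.2 ± 2.33 in control and 12.2 ± 3.40 in knockdown (SD, n = 3 each).

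**Figure D2:**
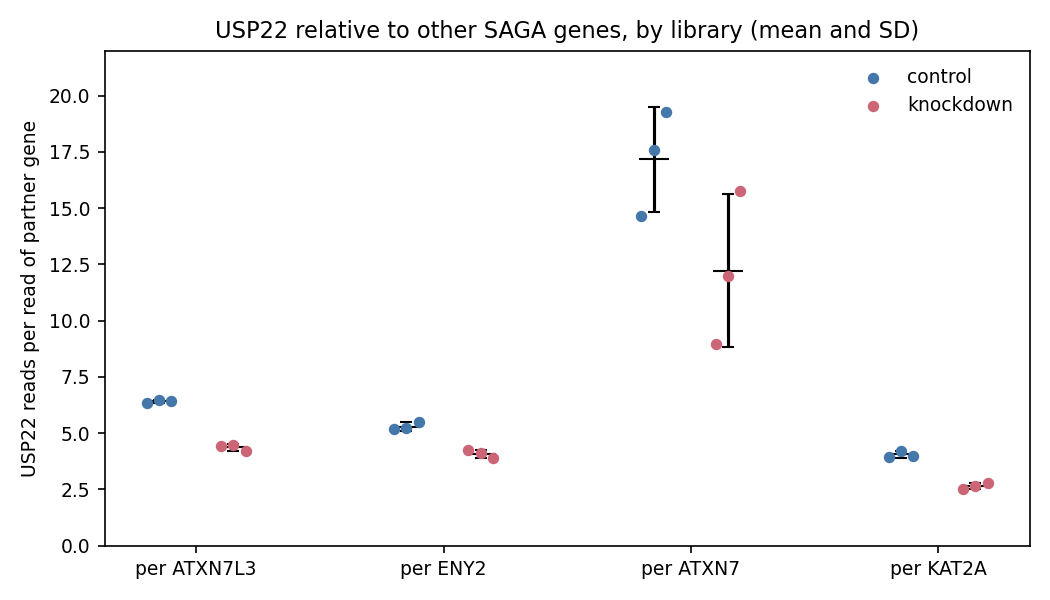
USP22 reads per read of ATXN7L3, ENY2, ATXN7 and KAT2A in the 3 control (blue) and 3 knockdown (red) libraries, with the mean and SD of each group in black. The ratios to ATXN7L3, ENY2 and KAT2A are apart, and the ratio to ATXN7 overlaps through the spread of ATXN7.

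In the acetyltransferase module the main enzyme and its paralogue differed in their values. KAT2A (chromosome 17, 40265129 to 40273385), also called GCN5, was at 107, 99.7 and 108 CPM in control and 111, 107 and 98.9 CPM in knockdown. These groups overlapped, with a log2 fold change of 0.04 ± 0.05 (SE; edgeR adjusted p 0.528) and an interval of the change from -3.72% to 9.71%. KAT2B (chromosome 3, 20081938 to 20195896), also called PCAF, was much scarcer. It had 87, 78 and 97 counts in control and 83, 94 and 88 in knockdown, or 6.91, 6.21 and 8.21 CPM against 5.79, 5.51 and 4.86 CPM.

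The KAT2B groups did not overlap, and its log2 fold change was -0.37 ± 0.14 (SE; edgeR adjusted p 0.0441). That call was close to the threshold and was lost with DESeq2 (adjusted p 0.152), with counts thinned to equal depth (0.106) and without control replicate 3 (0.227). Leaving out control replicate 1 or any of the 3 knockdown libraries also lost it (edgeR adjusted p 0.0516 to 0.139). KAT2B supplied 6.06%, 5.86% and 7.09% of the reads of the pair in control and 4.96%, 4.89% and 4.68% in knockdown, so its share was lower in every knockdown library.

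TADA2B (chromosome 4, 7043626 to 7059679) is the adaptor that places the acetyltransferase in SAGA, and SUPT20H (chromosome 13, 37583449 to 37633850) is a core scaffold subunit. TADA2B was at 34.5, 36.6 and 33.6 CPM in control and 34.7, 33.2 and 35.1 CPM in knockdown. Its log2 fold change was 0.00 ± 0.06 (SE; edgeR adjusted p 0.964). SUPT20H was at 47.8, 49.5 and 61.0 CPM in control and 51.6, 53.3 and 49.2 CPM in knockdown, where control replicate 3 was the highest library. Its log2 fold change was -0.01 ± 0.07 (SE; edgeR adjusted p 0.956). Any reads shared with X-linked copies of SUPT20H may have been split by the counting, which was not examined. In both genes the groups overlapped, and the sign of the difference changed with the scaling or the filter.

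All 10 genes passed the filter on low counts. Of the 9 besides USP22, edgeR's test called 2 lower (ENY2 and KAT2B) and 0 higher, where 19.2% of all tested genes were lower and 19.3% higher. At an unadjusted p under 0.05 the counts were again 2 and 0, and 0 were called higher by DESeq2 or limma voom. The number called lower was 1 (ENY2) under DESeq2 and in the other settings that cost KAT2B its call. The median log2 fold change of the 9 was -0.06, against -0.00 over all tested genes. The change of USP22 was -33.1%, with a 95% interval from -35.9% to -30.2%. That estimate lay outside the 95% intervals of the 9 genes apart from USP51 and KAT2B, whose low counts gave wide intervals. As USP22 was picked for its fall, this is a description and not a test of a difference between genes.

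The rest of SAGA showed small changes in both directions, with more genes called lower than higher. Of 23 tested subunit genes besides USP22, 8 were lower, 2 higher and 13 not called, with a median log2 fold change of -0.02. The share called in either direction was 43.5%, against 38.5% of all tested genes. By direction, 8 of the 23 were lower, where 19.2% of all tested genes were. Only 2 of the 23 were higher, where 19.3% of all tested genes were. No set test was run. After correcting for length and GC of the transcripts 3 were higher, SGF29 being the gene added (adjusted p 0.0414). Beyond ENY2 and KAT2B, the lower genes were TADA3 (log2 fold change -0.17), an acetyltransferase module adaptor, and the core subunits TAF5L (-0.17), TAF10 (-0.20) and TAF12 (-0.27). The splicing factors SF3B3 (-0.10) and SF3B5 (-0.24), which are also part of SAGA, were lower too. The edgeR adjusted p of these 8 ranged up to 0.0441, and TAF5L lost its call with DESeq2 (adjusted p 0.0995) and without control replicate 1 or 3 or knockdown replicate 1 or 3. SF3B3 lost its call without control replicate 2 or knockdown replicate 2 (edgeR adjusted p 0.0534 and 0.0566). TAF9, a histone-fold subunit, was higher (0.16, edgeR adjusted p 0.00531).

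TRRAP, the very large scaffold that binds activators, was also called higher (log2 fold change 0.13, edgeR adjusted p 0.0480). Its groups overlapped, at 258, 276 and 291 CPM in control and 313, 304 and 266 CPM in knockdown. The TRRAP call was lost under 11 of the 18 alternative fits, with DESeq2 (adjusted p 0.259) and library size alone (edgeR adjusted p 0.145) among them. None of the 23 genes had a fold change as low as that of USP22, the lowest being KAT2B.

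**Figure D3:**
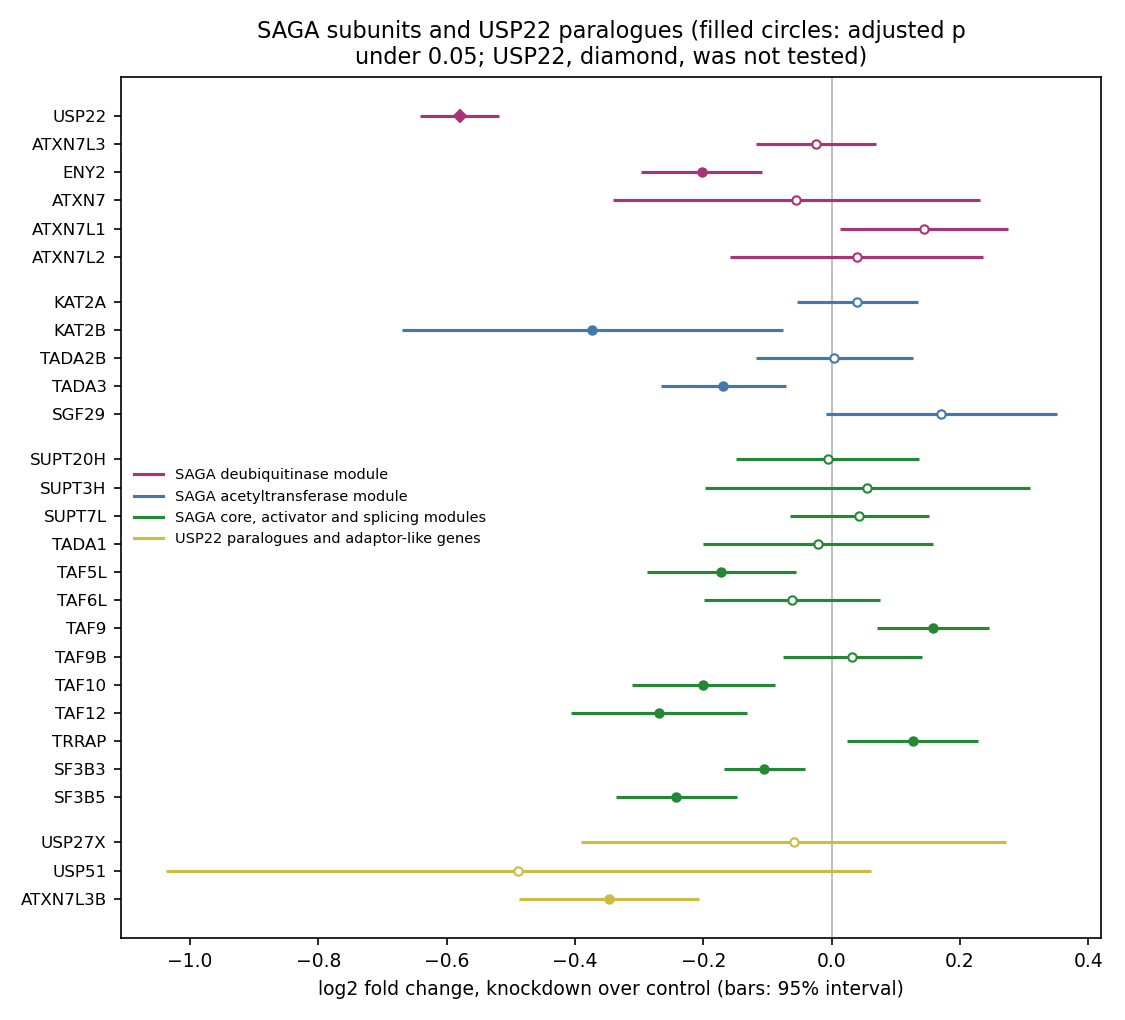
Log2 fold change (knockdown over control) with 95% interval for the 24 SAGA subunit genes and for USP27X, USP51 and ATXN7L3B, coloured by module; filled circles passed an edgeR adjusted p of 0.05, open circles did not, and the diamond is USP22, for which no test is given. USP22 at -0.58 has the lowest value, and the other subunits lie between -0.37 and 0.17.

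Complexes that share parts with SAGA showed small differences in both directions. ATAC, a second acetyltransferase complex built on KAT2A or KAT2B, had 2 of its 7 specific genes lower (TADA2A, log2 fold change -0.24, edgeR adjusted p 0.0408, and ZZZ3, -0.14, adjusted p 0.0306) and 1 higher (MBIP, 0.17, adjusted p 0.0266), with a median of -0.08. The share called was 42.9%, near the 38.5% of all tested genes. All 3 calls were lost with DESeq2 (adjusted p 0.107 to 0.159) and with several single libraries left out. In TREX-2, 1 of 6 genes was lower (19.2% of all tested genes were), ENY2 itself.

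The enzymes that write the mark USP22 erases were examined next. Of 11 genes for H2B ubiquitination and the PAF1 elongation complex, 1 was lower and 2 were higher (27.3% called, against 38.5% of all tested genes), with a median log2 fold change of 0.01. RNF20, a subunit of the E3 ligase that ubiquitinates H2B, fell from 59.0 ± 2.77 to 46.0 ± 1.91 CPM (SD over 3 libraries each; log2 fold change -0.33, edgeR adjusted p 5.77e-05), with the groups apart. Its partner RNF40 was at 164 and 158 CPM and was not called (adjusted p 0.676). WAC, which links RNF20 and RNF40 to RNA polymerase II, rose (0.19, adjusted p 0.000597), and so did PAF1 (0.14, adjusted p 0.00511).

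Of 10 other deubiquitinases that act on histones, 2 were lower and 2 higher, with a median of -0.04. That is 40.0% called, near the 38.5% of all tested genes. USP12 was lower (log2 fold change -0.18, edgeR adjusted p 0.00751). USP44, another enzyme that removes ubiquitin from H2B, was lower too (-1.24, adjusted p 0.0232) but had only 3 to 18 counts per library, and its call was lost with DESeq2 (0.0888) and without control replicate 2 or 3 or knockdown replicate 2. USP7 (0.12) and USP3 (0.17) were higher. USP3 lost its call with DESeq2 (adjusted p 0.0943), with library size alone and without control replicate 2 or knockdown replicate 2, and USP7 without control replicate 1.

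Across the ubiquitin-specific proteases, USP22 was the most abundant transcript in control cells. Of 51 USP genes, 47 were tested, and the 4 others had at most 2.67 counts on average. Per kilobase of transcript, USP22 stood at 81.8 ± 0.972 CPM in control (SD, n = 3), ahead of USP5 (77.1), USP39 (60.2) and USP1 (52.9). In knockdown it stood at 53.6 ± 0.719 CPM per kilobase, rank 4, behind USP5 (78.5), USP39 and USP14 (55.3). Other than USP22, 46 genes were tested, 8 being lower and 7 higher, with a median log2 fold change of 0.01. The share called, 32.6%, compares with 38.5% of all tested genes, and over the alternatives 5 to 10 were lower and 4 to 12 higher. USP18 (-1.65, edgeR adjusted p 5.49e-05), which removes the ubiquitin-like protein ISG15, and USP2 (-1.32, adjusted p 0.000135) fell by more than USP22 from low control levels, 3.59 ± 1.02 CPM (SD, n = 3) for USP18. USP18 has a close copy, USP41, with which reads may be shared. USP28 (0.45, adjusted p 1.01e-06) and USP14 (0.21, adjusted p 3.98e-05), a protease bound to the proteasome, were higher.

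**Figure D4:**
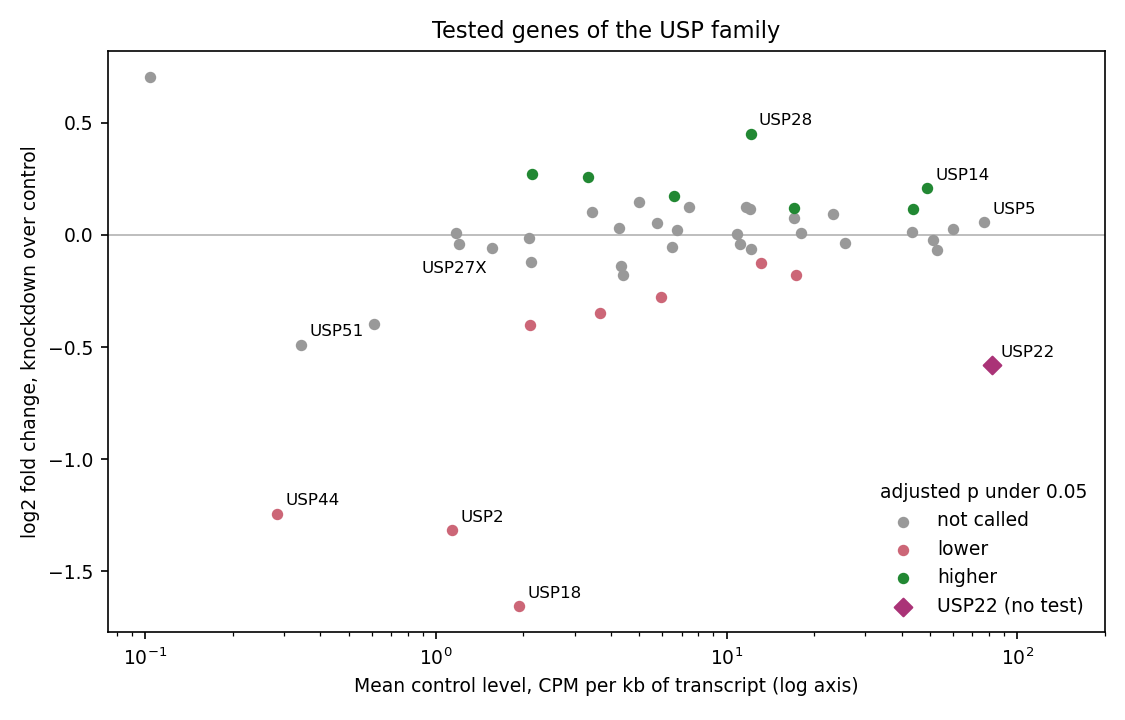
Log2 fold change (knockdown over control) against the mean control level in CPM per kilobase of transcript, on a log axis, for the 47 tested USP genes; colours mark the edgeR call and the diamond is USP22, for which no test is given. USP22 lies farthest right, and the genes with a lower fold change (USP18, USP2 and USP44) all lie at under 2 CPM per kilobase.

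USP22 was described with 10 other genes in the tumour signature named above. Of those, 9 were tested, with 4 higher and 1 lower, where 19.3% of all tested genes were higher and 19.2% lower. BUB1, a mitotic checkpoint kinase, rose (log2 fold change 0.23, edgeR adjusted p 1.90e-05), and MKI67, a marker of cycling cells, was higher (0.26, adjusted p 0.00306), though its groups overlapped and DESeq2 gave an adjusted p of 0.103. ANK3, which encodes ankyrin-G, fell (-0.79, adjusted p 0.000219).

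Of the genes around USP22 on chromosome 17, 1 of 20 was called lower. Among the 10 tested genes on either side, 8 were higher, 1 lower and 11 not called, with a median log2 fold change of 0.02. Not all of them are close to USP22: they reach as far as 5137 kb, and the higher ones lay 681 to 5137 kb away. Of all tested genes 19.3% were higher and 19.2% lower. The nearest tested neighbours, DHRS7B at 79.6 kb (0.02, edgeR adjusted p 0.884) and TMEM11 at 154 kb (0.00, adjusted p 0.948), were not called. On the other side SPECC1 at 681 kb (0.24, adjusted p 0.000310) and AKAP10 at 1021 kb (0.20, adjusted p 0.00744) were higher. KCNJ12, a potassium channel gene at 333 kb, fell from 6.62 ± 0.250 to 4.39 ± 0.385 CPM (SD over 3 libraries each; -0.56, adjusted p 0.00361), and SLC47A1 rose (0.56, adjusted p 5.61e-06). CCDC144NL-AS1, which overlaps the 3′ end of USP22 on the opposite strand, had only 2.5 counts on average.

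**Figure D5:**
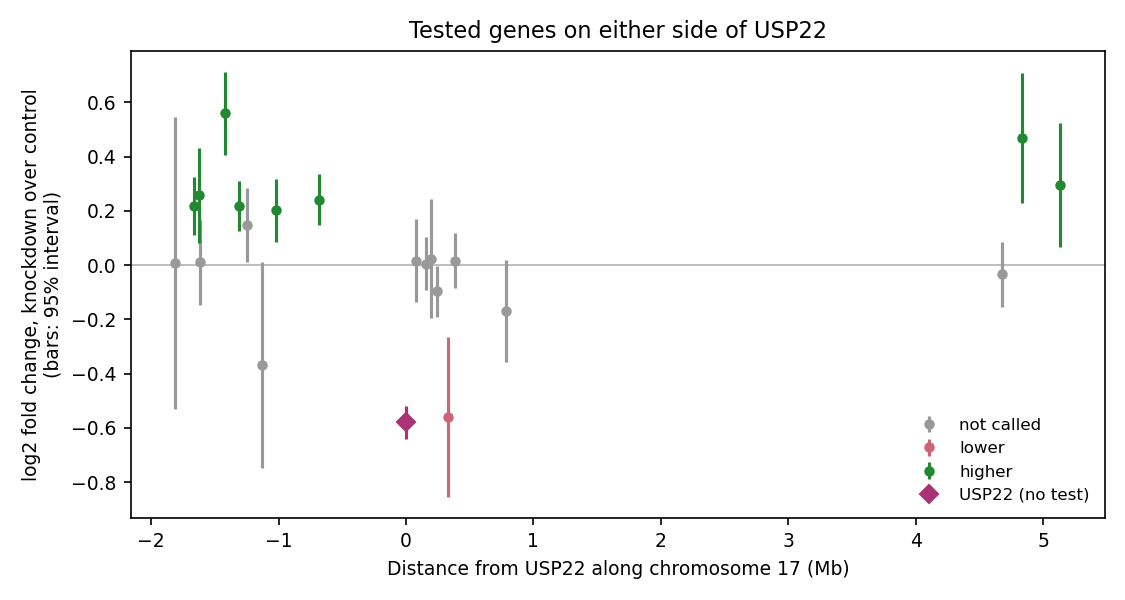
Log2 fold change (knockdown over control) with 95% interval for the 10 tested genes on either side of USP22, against distance along chromosome 17 in Mb. USP22 (diamond, no test) is at -0.58, the nearest neighbours lie near 0, and 8 of the 20 are higher.

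The genes whose pattern over the 6 libraries was most like that of USP22 came from other chromosomes. Likeness was the root mean square difference of log2 CPM, each gene centred on its own mean, over 10448 other genes averaging 100 counts or more. The 5 nearest were ZNF616 (difference 0.0256), HDAC3 (0.0314), TPGS2 (0.0349), PLS3 (0.0349) and TLE5 (0.0349). The same 5 came first under 3 scalings, but scaling shifts all genes of a library nearly alike. It almost cancels in a difference between genes, so this agreement was fixed in advance. HDAC3, the histone deacetylase of the NCoR and SMRT corepressors, was at 102 ± 1.61 CPM (SD, n = 3) in control and 67.1 ± 1.74 CPM (SD, n = 3) in knockdown. TLE5 encodes a short corepressor of the Groucho family and PLS3 an actin-bundling protein. Of the other 9 genes 6 had that many counts, and among these ENY2 came nearest, at rank 957, and ATXN7 farthest, at rank 7865. These genes were found by their likeness to a gene chosen for this pattern, so their values are a description.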

How the data were processed

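RNA-seq libraries of 3 control and 3 knockdown cultures were grouped by their titles. The authors deposited whole-number read counts per gene symbol, and a normalized signal that equals the deposited counts divided by 1 constant per library (0.847 to 1.25). STAR 2.6.1a, Salmon, DESeq2 and hg19 are named in the submitters' processing notes, with no role, so whether the counts are counted reads or rounded estimates is not given in the sources used here. Amplified reads are not independent molecules.

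Counts were tested with edgeR 4.0.16 (R 4.3.3): TMM scaling, filterByExpr, the quasi-likelihood test with group as the only term, and Benjamini-Hochberg adjustment over all 13832 tested genes at 0.05. Standard errors were taken from the fold change and F, and intervals are 95%. CPM are scaled to the library total. The fits were tested on simulated data. Alternatives were other scalings and filters, DESeq2 1.42.0, limma 3.58.1 (voom, and log2 of the normalized signal plus a pseudocount of 1), thinned counts, a replicate block, a length and GC correction (97.2% of tested genes matched), an adjusted p of 0.01, and leaving out each library. Coordinates and lengths come from GENCODE 44 on GRCh37; the annotation used for counting is not given in the sources used here, and 0 sample columns were left unused.

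The 10 genes and all gene lists were chosen with earlier results of these data known. Named genes are the 10, every SAGA subunit past the threshold, the 2 smallest p-values per direction of each other list, the 5 genes most like USP22, and the nearest chromosome 17 neighbours with any past 0.5 in log2 fold change. Others named (uncalled relatives, overlapping genes, marker genes and top USP genes) were chosen after their values were seen.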

Additional observations from a re-analysis of the deposited data

How the results depend on the processing

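The log2 fold change of USP22 was -0.58 and stayed between -0.62 and -0.57: it was -0.60 with upper-quartile scaling, -0.61 with library size alone, -0.62 with a length and GC correction and -0.62 with that correction and a replicate block. Of 23 SAGA subunits besides USP22, 8 were lower, and 6 to 8 were lower in the alternatives run. The 2 higher became 3 with the length and GC correction, 1 with upper-quartile scaling, library size alone, a mean of at least 50 counts, DESeq2, limma voom, the replicate block, length and GC correction with the block, and an adjusted p under 0.01, and 1 to 2 with each library left out; TRRAP lost its call in 11 of the 18 alternative fits. Over all genes, 2653 were lower and 2676 higher, and 3198 and 2206 with library size alone. In the smaller lists the lower and higher counts ran from 0 to 4 and 0 to 2 for ATAC, 1 to 1 and 2 to 4 for the H2B writers, 1 to 2 and 1 to 3 for the other histone deubiquitinases, 1 to 2 and 2 to 4 for the tumour signature, and 1 to 2 and 6 to 8 for the chromosome 17 neighbours; TREX-2 gave 0 to 2 higher.

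Of the 34 genes besides USP22 that were refitted under the alternatives, 4 changed sign, and none of these 4 was called. USP27X ranged from -0.17 to 0.0089 and ATXN7 from -0.26 to 0.13 with each library left out. TADA2B was -0.016 with upper-quartile scaling, -0.026 with library size alone, -0.0087 with a mean of at least 50 counts, -0.027 with thinned counts, -0.030 with the length and GC correction, -0.031 with that and the replicate block, and -0.020 to 0.048 with each library left out. SUPT20H was 0.0054 with no filter, 0.0014 with limma voom, 0.0076 on the deposited normalized values, and -0.074 to 0.11 with each library left out. The causes were not tested. USP51 was not tested at a mean of at least 50 counts; about 20 counts per library limit what can be said of it.

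Replicate numbers are shared by the titles, but the deviations of same-numbered libraries correlated at -0.07, -0.04 and -0.22, so they did not deviate together. Whether the numbers mark a shared day or batch is not given in the sources used here, and these correlations cannot settle it. With the replicate block USP22 was at -0.58, ENY2 kept its call (edgeR adjusted p 0.00484) and KAT2B lost it (0.0664); over all genes 2407 were lower and 2455 higher.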
